A study of Drosophila melanogaster with 2 samples.

Results

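Intronic binding sites of CG10366 were described where they lay close to, but outside, promoters. A site entered this set when its summit, the position of highest enrichment in a peak, was on an autosome, inside an annotated gene but in no exon, and over 500 and up to 2000 bp from the nearest transcript start. The peaks came from the list made from both libraries at an irreproducible discovery rate (IDR) of 0.01 or less. IDR measures how poorly a peak's rank repeats between compared sets of peaks. Which sets were compared for this list is not known here, and not every site had a ranked peak in each replicate. Of the 5153 peaks of this list, 595 met the rule (11.5%, 10.7 to 12.4%). Brackets after a share give its 95% Wilson interval, which covers counting error only.

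The tested material was whole Drosophila melanogaster embryos aged 0 to 24 h from transgenic flies expressing CG10366 fused to eGFP. Chromatin was sonicated to 200 to 800 bp and precipitated with anti-GFP antibody, and the 2 libraries, replicate 1 and replicate 2, are separate biological replicates of this 1 group. Which promoter drives the fusion, and whether untagged CG10366 is also present, is not stated in the labels. Whole embryos of this age range mix all tissues and stages, so fewer bound cells and less binding per cell cannot be told apart. The lists hold no read totals, so depth is unknown, and control libraries were not analysed here.

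CG10366 encodes a protein with C2H2 zinc fingers, small zinc-binding units that commonly contact DNA. Introns near a gene's start often hold enhancers and other promoter-proximal control sequences in flies, and a long first intron is a common place for them. A first intron can also hold a second, alternative start site of the same gene, so a site in it may be downstream of one start and upstream of another.

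The summit windows of the 5 strongest sites outside the right arm of the second chromosome ranged in G and C from 21.8% at CG11050 to 48.5% at mub. They are shown in order of signal, so that the A and T runs of 3 of them can be set beside the 2 windows without any. Each window is 101 bases centred on the summit, given 5′ to 3′ on the strand of the gene around it, in dm6 coordinates, with letters from RefSeq's copy of the assembly. Capitals mark runs of 8 or more A or T. The windows are those of CG11050 (chr2L:6612657-6612757, plus strand), of Trl, which encodes the GAGA factor (chr3L:14759458-14759558, minus strand), of CG9663 (chr2L:3302160-3302260, minus strand), of CG9837 (chr3R:8811631-8811731, minus strand) and of mub, a KH-domain RNA-binding protein gene (chr3L:21880437-21880537, plus strand).
CG11050: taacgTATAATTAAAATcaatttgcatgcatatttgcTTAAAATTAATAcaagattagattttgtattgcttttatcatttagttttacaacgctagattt
Trl: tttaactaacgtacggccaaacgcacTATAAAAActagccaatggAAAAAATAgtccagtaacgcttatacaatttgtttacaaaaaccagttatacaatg
CG9663: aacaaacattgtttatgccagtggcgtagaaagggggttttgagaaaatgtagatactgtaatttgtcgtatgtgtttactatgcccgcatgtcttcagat
CG9837: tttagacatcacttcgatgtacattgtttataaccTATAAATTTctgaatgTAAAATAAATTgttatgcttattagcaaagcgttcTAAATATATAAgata
mub: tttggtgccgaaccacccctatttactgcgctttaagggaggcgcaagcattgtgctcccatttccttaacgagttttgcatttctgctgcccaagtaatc

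A second kind of window carried a defined 8-letter sequence. ACAGGGTG was the 8-mer with the highest share in CG10366 peaks outside this set, relative to failing candidates there, and 10 of the 595 windows of 50 bp to either side of a summit held it. The next 5 lines give it, in capitals, with 12 bases to either side on the strand that reads it, at the strongest sites that carry it outside the right arm of the second chromosome. They lie in introns of His2Av, the H2A.Z-type histone variant gene (chr3R:26867554-26867585, plus strand), fz2, a Wingless receptor gene (chr3L:19171592-19171623, plus strand), Ctps, the CTP synthase gene (chr3L:15098942-15098973, plus strand), sr, which encodes the tendon-cell transcription factor Stripe (chr3R:18107729-18107760, plus strand), and Trx2, a thioredoxin gene (chr2L:9614046-9614077, plus strand).
His2Av: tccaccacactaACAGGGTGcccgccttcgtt
fz2: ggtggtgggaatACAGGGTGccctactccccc
Ctps: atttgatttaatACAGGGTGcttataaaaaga
sr: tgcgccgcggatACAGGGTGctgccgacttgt
Trx2: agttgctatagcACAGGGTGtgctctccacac

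The sr site also held CACAGTGG, another 8-mer of the same selection, on 2 places of the same strand (chr3R:18107768-18107799 and chr3R:18107780-18107811, plus strand). It is shown with the sites in kis, a chromodomain remodeller gene of the Trithorax group (chr2L:224905-224936, plus strand), and tai, a coactivator gene of the ecdysone receptor (chr2L:9168524-9168555, minus strand).
sr, first: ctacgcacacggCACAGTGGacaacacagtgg
sr, second: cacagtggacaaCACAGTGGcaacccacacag
kis: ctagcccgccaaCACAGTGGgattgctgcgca
tai: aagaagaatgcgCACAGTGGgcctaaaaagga

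Intronic binding was densest at start sites and was lower with distance across the range that defines the set, though not from every bin to the next. The list from both libraries held 126 summits per Mb of autosomal intron up to 500 bp from a start, 64.5 over 500 and up to 2000 bp, and 25.3 beyond. Replicate 1's own list gave 117, 60.8 and 23.2 summits per Mb over the same 3 ranges, and replicate 2's gave 96.8, 41.9 and 15.5. Both libraries thus showed the same order. Within the set, bins of 250 bp held 87.9, 75.5, 55.7, 59.6, 47.9 and 49.8 summits per Mb with growing distance, and the next bin beyond 2000 bp held 30.5. Failing candidates, that is ranked peaks above the IDR limit, changed less over the 3 ranges, with 273, 262 and 209 per Mb.

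**Figure D1:**
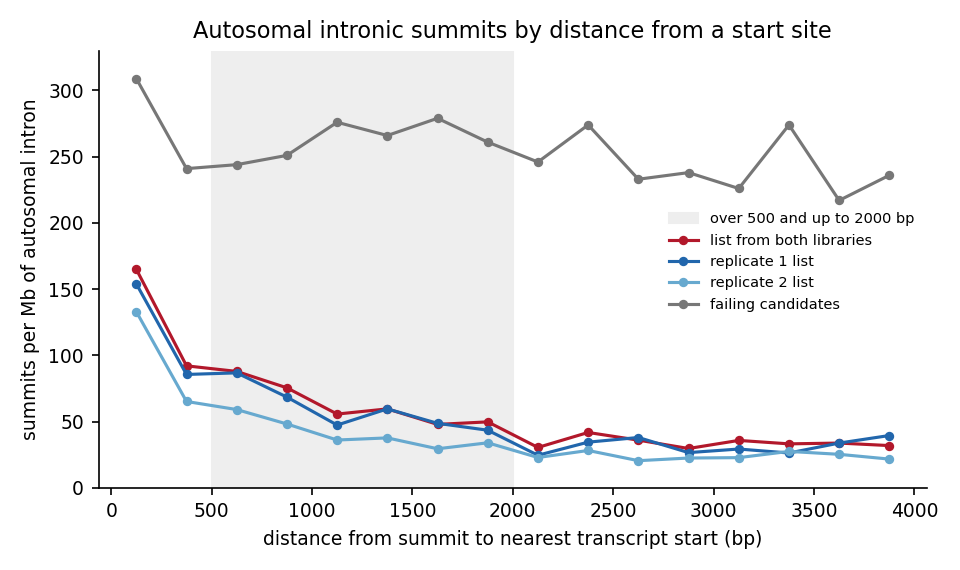
Summits per Mb of autosomal intron (y axis) against distance to the nearest transcript start (x axis, bins of 250 bp) for the list from both libraries, the replicates' own lists and failing candidates; the shaded range is that of the set. All 3 lists of called peaks end the shaded range lower than they begin it, and the list from both libraries has 87.9 per Mb in its first bin and 49.8 in its last.

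The same fall appears in the share of candidates that passed. Of 3010 candidates at these positions, 595 passed (19.8%, 18.4 to 21.2%), where 15.2% of 33870 ranked candidates of all classes passed. Both totals leave out ranked peaks that met the IDR limit but are not in the thresholded list, which number 20 at these positions and 148 of the 34018 ranked in all; they count neither as passing nor as failing. At promoters, within 500 bp of any start site, 29.8% of 7753 candidates passed (28.8 to 30.8%), and in autosomal introns beyond 2000 bp 10.8% of 7822 did (10.1 to 11.5%). Inside the set the passing share was 26.5% (23.1 to 30.1%) in the bin nearest the start and 16% in the farthest. Passing is what selects the set, so these shares describe it and are not tested.

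Signals just inside and just outside the distance limits spanned similar values. The 3 sites just over 500 bp were at mats, lncRNA:CR42736 and ush, all at 501 bp, with signals of 201, 188 and 116, and those at 500 bp or just under were at capu (signal 100), bark (214) and jar (333). At the outer limit, tna at 1999 bp had a signal of 268 and Ptp61F and Dys at 1992 bp had 137 and 106. Just beyond it, pnt at 2009 bp had 122, lncRNA:CR44320 at 2011 bp had 237 and CadN at 2020 bp had 92.2. The signal is the authors' own value for a peak and is used only to describe and rank peaks within a list.

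The strongest of the intronic sites were among the strongest peaks of the genome. The median signal of the 595 was 142, with quartiles of 100 and 235 and a range of 2.32 to 3135. All 5153 peaks had the same median of 142, promoter peaks 158, and autosomal intronic peaks beyond 2000 bp 127. Of the 500 peaks with the highest signal, 56 belonged to the set, which is 9.41% of it (7.32 to 12%), beside 9.70% of all peaks. Of promoter peaks 13.8% (12.5 to 15.3%) were among those 500, and of the far intronic ones 4.02% (2.89 to 5.57%).

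The site in CG11050 had a signal of 3135, the rank 2 among all peaks, with 1784 in replicate 1's list and 1368 in replicate 2's. It spans 6612546 to 6612888 on 2L, and its summit lay 1020 bp downstream of the CG11050 start in a second intron of only 140 bp. Next came a site in introns of the overlapping annotations of HmgD and HmgZ, which encode high mobility group box proteins that bind and bend DNA (2R, 21703155 to 21703656). It had 2033 in the joint list, 1371 in replicate 1 and 649 in replicate 2, and lay 559 bp upstream of an HmgZ start. The ratio of replicate 1 to replicate 2 was widest among the 25 strongest sites at 2.11, with a median of 1.5, and replicate 1 was the higher in 24 of the 25.

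Adf1, the gene of a transcription factor first known from the Adh promoter, held the next site (2R, 6662886 to 6663222), with 1791 in the joint list, 1186 in replicate 1 and 645 in replicate 2. Trl had 1289 jointly, 792 in replicate 1 and 498 in replicate 2, 1541 bp downstream of a Trl start (3L, 14759333 to 14759684). Genes of other DNA-binding and chromatin proteins thus hold 3 of the 4 strongest sites; this grouping was made after the values were seen and was not tested. Trl held 2 more members, with signals of 260 at 1123 bp and 203 at 633 bp downstream of its starts.

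Among the other strong sites, CG9663 held a pair in 1 first intron of 1292 bp, with signals of 1216 and 866 at 920 and 714 bp downstream of the start (2L, 3302028 to 3302343 and 3302286 to 3302570). CG9837 held 3 members in a first intron of 3342 bp. They had signals of 1169, 179 and 149. The strongest lay 1870 bp upstream of another CG9837 start (3R, 8811530 to 8811846), and the weakest was in replicate 2's list and not in replicate 1's.

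The sites that followed stood in genes of varied roles. KCNQ, a voltage-gated potassium channel gene, had 1110 jointly, 709 in replicate 1 and 385 in replicate 2 (2R, 10159428 to 10159843), and its nearest start was that of mlt. The site in mub had 1067, and that in chif, the Dbf4-related replication gene, and the overlapping Hyls1 had 1045 (2L, 16351079 to 16351378). Csk, the kinase gene whose product restrains Src kinases, had 901 (3R, 11649533 to 11649782), MYPT-75D, a myosin phosphatase targeting subunit gene, had 878, and for, the foraging cGMP-dependent protein kinase gene, had 863. Every one of these sites overlapped a peak in both replicates' own lists and in the conservative list, as did all 25 of the strongest.

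The remaining strong sites ranged from 1001 at lncRNA:CR44810 to 694 at tsr. They included sick (868), CG4496 (860), ImpL2, a secreted insulin-binding protein gene (859), Reph (844), Dhc64C, the cytoplasmic dynein heavy chain gene (801), and brat, a translational repressor of the TRIM-NHL family (769). Below them were CG31635 (754), edl, whose product antagonises Ets factors in the Ras pathway (745), Mekk1, a MAP kinase kinase kinase gene (711), CG10237 (701) and tsr, the cofilin gene (694). At tsr replicate 2 was the higher, with 316 in replicate 1 and 374 in replicate 2, the 1 exception among the 25. Of these 25 sites, 20 lay in a first intron, and they split almost evenly over the sides of the nearest start, with 12 downstream and 13 upstream.

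**Figure D2:**
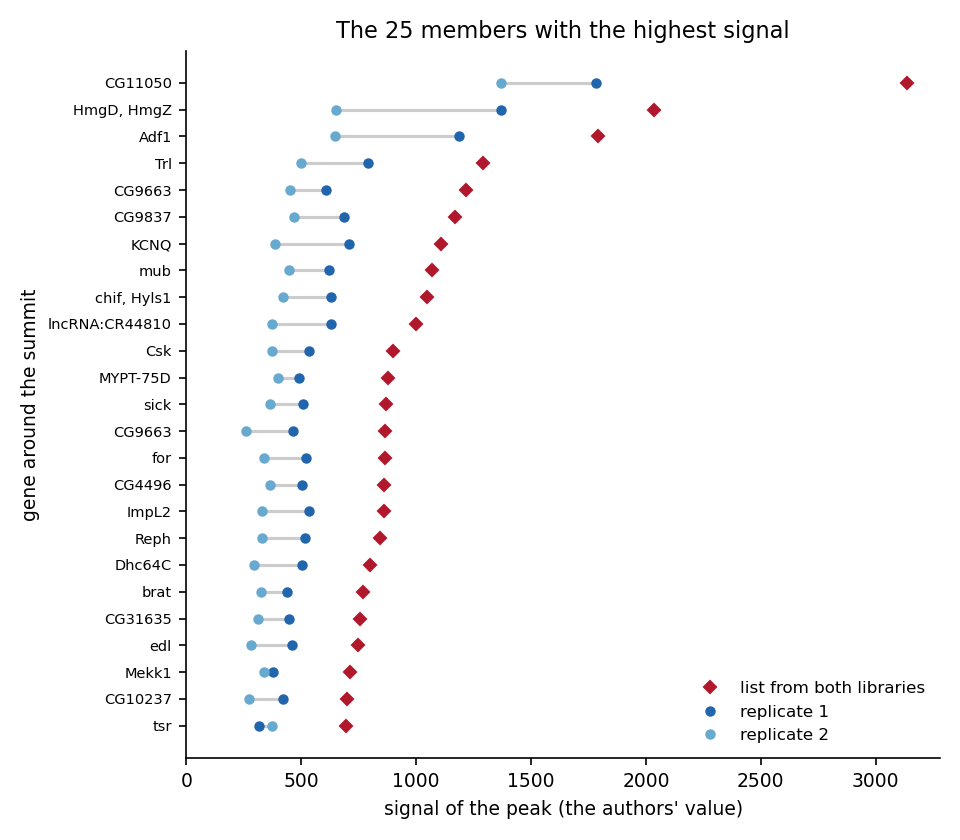
Signal (x axis, the authors' value per peak) of the 25 strongest intronic sites, named by the gene around the summit (y axis), in the list from both libraries (diamonds) and in each replicate's own ranked list (circles). Replicate 1 is the higher in 24 of the 25, and the joint value of CG11050 stands apart at 3135.

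Most sites repeated in the replicates' own lists. Of the 595, 350 overlapped a peak of both replicates by at least 1 bp (58.8%, 54.8 to 62.7%), 161 met only one of replicate 1 (27.1%), 28 only one of replicate 2 (4.71%) and 56 met no peak in either list (9.41%). The share found in both was 63.7% for promoter peaks (61.7 to 65.6%), 50.2% for far intronic peaks (46.8 to 53.5%) and 57.9% for all peaks. Of all peaks, 27.2% met only a peak of replicate 1, 6.46% only one of replicate 2 and 8.42% neither, close to the shares of the sites. The median signal was 204 for sites found in both replicates and 81.4 for those found in neither. Of the 595, 529 were also in the conservative list (88.9%), beside 87.8% of all peaks.

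Replicate 1 read higher at most sites. The median signal in the replicates' ranked lists was 85.6 in replicate 1 over 583 sites and 64.4 in replicate 2 over 590, and replicate 1 was the higher at 459 of the 580 sites with a value in both (79.1%, 75.6 to 82.2%). Ranks followed each other across these 580 sites (Spearman correlation 0.745), and across 812 far intronic sites the correlation was 0.626. Sites of 1 library share its depth and passed a reproducibility threshold, so these coefficients are descriptions. Whether the difference in level comes from depth was not tested.

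Signals under 20 belonged to 27 of the sites (4.54%). All 27 overlapped a stronger peak of the same list, and 82 of the 595 sites overlapped another peak in all, so neighbouring sites can share sequence and a replicate peak. In ush, which encodes a zinc-finger cofactor of GATA factors, the summits of 1 such pair had signals of 145 and 4.25 over overlapping intervals, and both met the same replicate peaks of 78.7 in replicate 1 and 56.4 in replicate 2. At vimar, signals of 147, 3.30 and 2.68 lay side by side. The summit windows of the 27 had a median GC content of 45.5%, against 31.7% in the other 568.

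The sites were mostly in the first intron of the gene whose start was nearest. A first intron of at least 1 transcript held 481 of the 595 (80.8%, 77.5 to 83.8%), against 71.0% of the 2415 failing candidates at these positions (69.2 to 72.8%). The nearest start was that of the gene around the summit in 83.9% of sites (80.7 to 86.6%) and in 73.0% of failing candidates (71.2 to 74.7%). Sites in a first intron had a median signal of 147, and the 114 others 126, though the strongest of all, at CG11050, was in a second intron.

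Direction differed little over all sites, and more among those nearest to their own gene's start. The summit lay downstream of the nearest start in 64.4% of sites (60.4 to 68.1%) and in 64.5% of failing candidates (62.5 to 66.4%). Where the nearest start was that of the gene around the summit, 69.5% of 499 sites (65.4 to 73.4%) and 74.9% of 1762 failing candidates (72.8 to 76.9%) lay downstream. Of all sites, 35.6% lay upstream of a start while still inside a gene, as at HmgZ, chif and brat. Sites were nearer to the start, with a median distance of 1023 bp against 1193 bp for failing candidates, and 49.1% lay within 1000 bp (45.1 to 53.1%) against 36.5% (34.6 to 38.5%). The shortest annotated introns around the summits had median lengths of 4988 bp around sites and 5545 bp around failing candidates.

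Many sites had company. A further passing summit lay within 500 bp of the same nearest start at 142 sites (23.9%, 20.6 to 27.5%), against 14.7% of failing candidates (13.3 to 16.2%). Examples among the strongest are KCNQ, mub, chif, Csk and tsr, while CG11050, HmgZ, Adf1 and Trl had none at the nearest start. The median signal was 147 with such a promoter summit and 141 without. Another passing summit of any class was within 2000 bp of 46.9% of sites (42.9 to 50.9%) and of 25.4% of failing candidates (23.7 to 27.2%), and within 500 bp of 17.0% (14.2 to 20.2%) and 1.74% (1.29 to 2.34%).

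**Figure D3:**
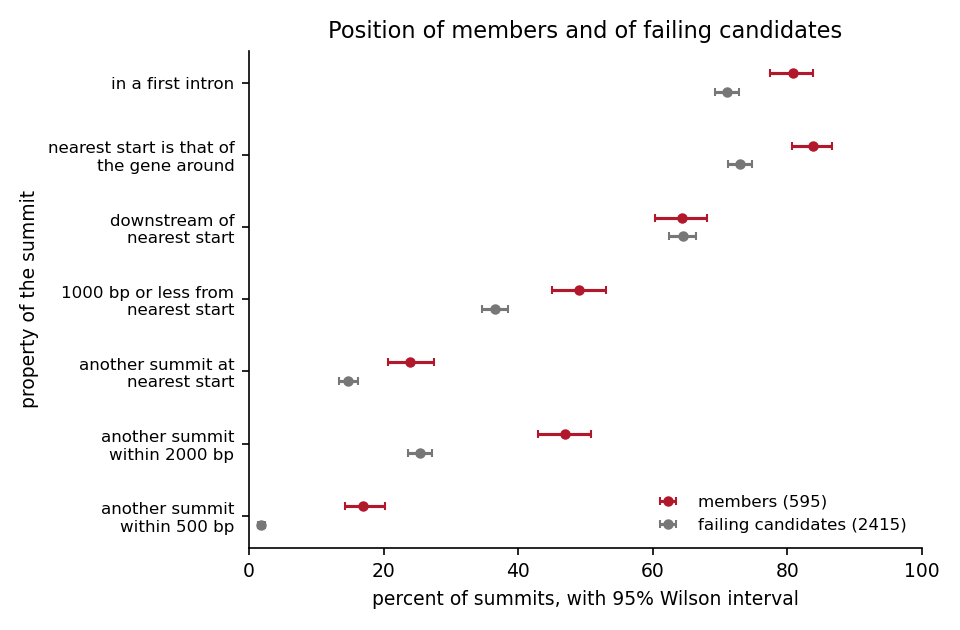
Percent of summits (x axis, with 95% Wilson intervals) that have each property (y axis), for the 595 sites (upper point of each pair) and 2415 failing candidates at the same positions (lower point). The intervals are apart for every property drawn except the side of the nearest start, at 64.4% and 64.5%. Of the 595 sites, 82 overlapped another passing peak, so a nearby summit need not be a separate site.

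The arms of the autosomes held similar shares. Sites numbered 122 on 2L, 142 on 2R, 143 on 3L and 188 on 3R, which is 59.0, 67.1, 62.0 and 72.0 per Mb of intron in the distance range. The passing share ran from 18.8% on 2L and 3L to 21.7% on 3R, with overlapping intervals. Chromosome 4 held no site among its 4 candidates, too few to read a share from.

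The sites fell in 449 of the 1474 protein-coding genes that had a candidate in this range (30.5%, 28.2 to 32.9%), and 103 genes held 2 or more. Shrm, Tpr2, pnt and ush each held 4, and they differed in how strong these were. Tpr2, a tetratricopeptide co-chaperone gene, had signals of 455, 296, 190 and 150, all found in both replicates' lists. Shrm, which encodes the actin-binding Shroom protein, had 299, 236, 150 and 106. At pnt, the Ets activator gene of EGF receptor signalling, the values were 183, 116, 95 and 88.0, and 3 of the 4 were in replicate 1's list and not in replicate 2's. The members at ush had signals of 214, 145, 116 and 4.25, and a further ush candidate with a signal of 2897 was among the 20 left out of the thresholded list. Of the passing and failing candidates, 4 of 5 passed at Shrm, 4 of 6 at Tpr2 and 4 of 10 at pnt, while ush had no failing one. Acsl, an acyl-CoA synthetase gene and the first by name of the genes with 3 sites, had a highest signal of 126.

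Genes on the 20 functional lists held sites somewhat more often than genes at large. Of 195 listed genes with a candidate, 77 held a site (39.5%, 32.9 to 46.5%), beside the 30.5% over all 1474 genes. Counted by candidate, 115 of 494 in listed genes passed (23.3%, 19.8 to 27.2%), beside 19.9% of the 2946 in all protein-coding genes. A gene with more candidates has more chances to hold a site, so both counts are given here and, below, for some of the lists. Most lists are too small to separate from the background.

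**Figure D4:**
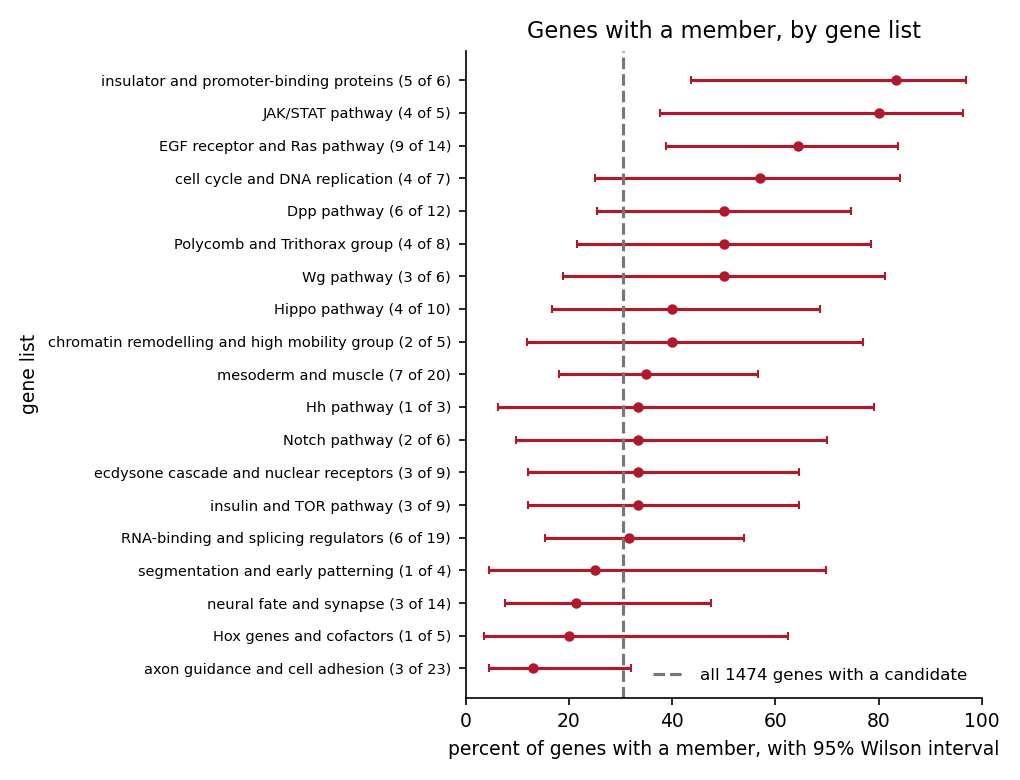
Percent of each list's genes with a candidate that hold an intronic site (x axis, with 95% Wilson intervals), for 19 of the 20 gene lists (y axis, with the number of genes). The dashed line is the 30.5% of all 1474 genes with a candidate, and 16 of the 19 intervals drawn include it.

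Most EGF receptor and Ras pathway genes with a candidate held a site. Of 14 EGF receptor and Ras pathway genes with a candidate, 9 held a site (64.3%, 38.8 to 83.7%, beside 30.5%), and 14 of their 39 candidates passed (35.9%, 22.7 to 51.6%). The strongest were at edl, at S, the Star gene needed for ligand release (signal 476, with 297 in replicate 1 and 178 in replicate 2), and at drk, the Grb2 adaptor gene (441, with 283 and 160). In the Dpp pathway, the fly BMP pathway, 6 of 12 genes held a site, and 14 of 32 candidates passed (43.8%, 28.2 to 60.7%, beside 19.9%). Here wit, a type II BMP receptor gene, had 643, with 397 in replicate 1 and 246 in replicate 2, and a second site of 233. The zinc-finger gene shn, whose product acts with the Smads, had 562, and the Smad gene Mad had 547.

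Smaller pathway lists ranged from near the background to well above it, with wide intervals. In the JAK/STAT pathway 4 of 5 genes held a site (80.0%, 37.6 to 96.4%, beside 30.5% over all genes with a candidate). Of their 14 candidates, 5 passed (35.7%, 16.3 to 61.2%), an interval that includes the 19.9% over all protein-coding genes. The highest were Stat92E, the pathway's transcription factor gene, at 330, its inhibitor Socs36E at 218 and ken at 146. In the Wg pathway 3 of 6 did, with the receptor genes fz2 at 190 and fz at 121 and the ligand gene Wnt4 at 154. The Hippo pathway had 4 of 10, led by dco (280), crb (236) and mats (201). Insulin and TOR genes had 3 of 9, with sima, the hypoxia-inducible factor gene, at 563, the insulin receptor gene InR at 336 and the kinase gene Sik3 at 242. Notch genes had 2 of 6, neur (467) and numb (91.2), and Hh genes 1 of 3, the receptor gene ptc (126).

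Chromatin genes also held strong sites. Of 6 insulator and promoter-binding protein genes with a candidate, 5 held a site (83.3%, 43.6 to 97%, beside 30.5%). Of their 22 candidates, 8 passed (36.4%, 19.7 to 57.0%), an interval that includes the 19.9% over all protein-coding genes. The highest were Adf1 and Trl, described above, and JIL-1, a histone H3 kinase gene (200). Polycomb and Trithorax group genes had 4 of 8, with Trl, kis (235) and psq (144). Chromatin remodelling and high mobility group genes had 2 of 5 (40.0%, 11.8 to 76.9%), HmgZ and the H3K79 methyltransferase gene gpp (162). The intervals of the last 2 lists include the 30.5% over all genes with a candidate.

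Axon guidance genes stood at the other end. Of 23 axon guidance and cell adhesion genes with a candidate, 3 held a site (13%, 4.54 to 32.1%, beside 30.5%), and 3 of their 48 candidates passed (6.25%, 2.15 to 16.8%, beside 19.9%). These were fz (121), fra, a Netrin receptor gene (118), and pk (103), of which fz and pk are known for planar polarity. Neural fate and synapse genes had 3 of 14 (7.57 to 47.6%), grh (134), chn (108) and cpo (96.5). Segmentation genes had 1 of 4 (4.56 to 69.9%), ken, and Hox genes 1 of 5 (3.62 to 62.4%), Abd-B (187). These intervals include the 30.5% over all genes, as does that of the axon guidance genes. By candidate, neural fate (3.85 to 28.1%), segmentation (3.01 to 56.4%) and Hox genes (5.14 to 47.7%) also had intervals that include 19.9%. Only the axon guidance candidates had an interval below it.

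Further lists had intervals that include the background. RNA-binding and splicing regulators had 6 of 19 genes, led by brat, ps (314) and pum, a translational repressor gene with 3 sites, of which the highest had 289. Mesoderm and muscle genes had 7 of 20, with the zinc-finger homeodomain gene zfh1 at 513, Msp300, the nesprin gene, at 451, and ths, an FGF ligand gene, at 403. Cell cycle genes had 4 of 7, with chif, trbl, the tribbles gene, whose product promotes turnover of a Cdc25 phosphatase (256), and the cyclin gene CycE (140). Nuclear receptors and ecdysone genes had 3 of 9, with the ecdysone receptor gene EcR at 332, tai at 171 and Eip75B at 91.2. The tagged gene CG10366 itself (2L, 19584235 to 19586440) held none of the 595 sites, though 3 passing summits of other classes lay within 2000 bp of it.

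The DNA under the summits was AT-rich in a narrow window. Over 50 bp to either side, GC content averaged 33.6% at the 595 sites (SD 8.93) and 42.7% at the 2415 failing candidates (SD 9.21). Far intronic peaks averaged 33.4% and autosomal promoter peaks 35.2%, so the low value was shared with other classes of CG10366 peaks. It was local: 300 to 500 bp away, GC content averaged 43.1% at sites and 41.2% at failing candidates, and the whole introns averaged 40.3% and 40.4%. The summit window was lower than its own flanks at 81.8% of sites (78.6 to 84.7%) and at 41.9% of failing candidates (40.0 to 43.9%).

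**Figure D5:**
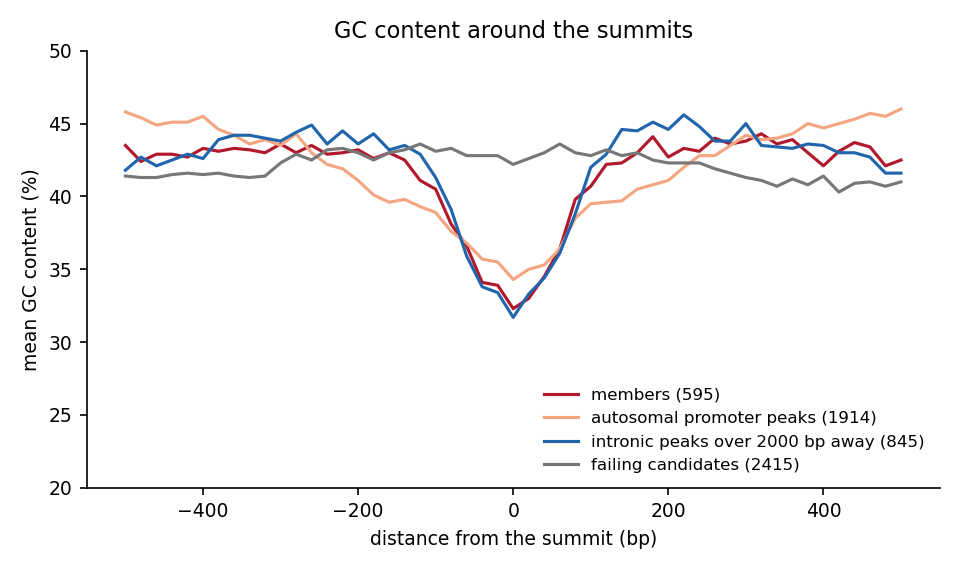
Mean GC content (y axis, percent, windows of 20 bp) against distance from the summit (x axis, bp) for the 595 sites, autosomal promoter peaks, far intronic peaks and failing candidates at the same positions as the sites. The sites dip to 32.3% at the summit, where failing candidates are at 42.2%.

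Groups of stronger sites had lower mean GC content. It averaged 29.5% in the 50 strongest, then 31.5% (ranks 51 to 150), 32.4% (151 to 300), 33.9% (the next 150) and 37.4% in the 145 weakest. The 145 weakest include the 27 sites with signals under 20, which overlapped stronger peaks and had a median GC content of 45.5%. Over all 595 the Spearman correlation of signal and GC content was -0.283; all points share the same 2 libraries. There were exceptions among the strongest, since the mub window had 48.5% and 15 of the 25 strongest were under 30%. Runs of 8 or more A or T stood in 76.5% of the windows (72.9 to 79.7%) and in 54.3% of failing windows, but in 78.8% of failing windows when these were weighted to the sites' GC content.

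Short sequence motifs differed little from failing candidates once GC content was accounted for. Of 24 motifs searched on both strands within 100 bp of the summit, 19 had a GC-weighted failing share inside the interval of the sites' share. That interval leaves out the error of the failing share, and with 24 motifs some differences outside it can arise from counting alone. Of the 4 motifs above, the CTCF core AGNNGGCGC, whose first N is a purine and second N is G or T, was in 11 sites (1.85%, 1.04 to 3.28%) against a GC-weighted 0.762% of failing windows and 0.389% of all autosomal windows of that length. The GAGA element GAGAG was in 23.9% against 20.2% (all windows 21.5%), CAGCTG in 8.40% against 6.21% (8.36%), and the Mef2 site in 12.1% against 9.63% (6.53%). Without weighting, failing windows held the CTCF core in 1.12%, GAGAG in 24.4% and CAGCTG in 8.99%, all inside the intervals of the sites' shares. Of the 4 motifs, only the Mef2 site stayed above, with 6.42% of failing windows. The Ets site CCGGAAN, whose N is a purine, was the only one below the GC-weighted share, in 3 sites (0.504%) against 1.92% (3.61%). Other classes of CG10366 peaks held these motifs too. Far intronic and autosomal promoter peaks held the CTCF core in 1.66% and 1.62%, and GAGAG in 23.3% and 21.2%. In the same order, CAGCTG was in 6.04% and 11.5%, the Mef2 site in 10.3% and 14.6%, and the Ets site in 1.54% and 3.76%.

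The DRE sequence TATCGATA was in none of the 595 windows (0%, up to 0.641%), and in 6.53% of autosomal promoter peaks and 0.534% of all windows. It was also rare in failing windows, at a GC-weighted 0.595%, and in far intronic peaks, at 0.473%. Its low share was thus not particular to these sites. The shorter BEAF-32 box CGATA, which lies inside TATCGATA, was in 21.7% of sites (18.6 to 25.2%), 35.9% of promoter peaks and 21.2% of all windows. Far intronic peaks held it in 20.2%, and failing windows in a GC-weighted 20.7%. A match describes the letters only, and the absence of one says only that these letters are not in the window.

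Some of the 8-mers common to CG10366 peaks elsewhere recurred in these introns. The 20 chosen were the 8-mers with the highest share, relative to GC-weighted failing windows, in the 4545 passing windows outside the set, so the sites had no part in the choice. Of the 20, 6 had a GC-weighted failing share below the interval of the sites' share and 14 were inside it. As for the motifs, that interval leaves out the error of the failing share, and with 20 8-mers some differences can arise from counting alone. ACAGGGTG was in 10 sites (1.68%, 0.915 to 3.07%) against 0.346% of failing windows, 1.34% of the other peaks and 0.153% of all autosomal windows of 101 bp. The 8-mers CACAGTGG and CACTGTGC, of which the second reads GCACAGTG on the other strand and so overlaps the first by all but 1 letter, were each in 15 sites (2.52%, 1.53 to 4.12%), against 0.551% and 0.760% of failing windows. They were in 1.47% and 1.39% of the other peaks.

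The remaining 3 were rarer. AGATGGCG, which is part of one form of the CTCF core, was in 4 sites (0.672%, 0.262 to 1.72%) against a GC-weighted 0.160% of failing windows. Without weighting, 0.414% of failing windows held it, which is inside that interval. ATAGTTAA was in 7 sites against a GC-weighted 0.391%. AACTATCG was in 2 sites against 0.0428%, which rests on 1 failing window. In all, 39 of the 595 windows carried at least 1 of the 6, so most sites carried none. The carriers shown above were of middling signal. His2Av had 267 jointly, with 83.2 in replicate 1 and 182 in replicate 2, and fz2 had 190, with 84.1 and 98.0. Ctps had 185, with 81.1 and 108, sr had 151, with 66.8 and 78.7, and Trx2 had 144, with 58.8 and 82.4. All 10 carriers of ACAGGGTG, the 5 not shown included, read higher in replicate 2, whereas 459 of the 580 sites with both values read higher in replicate 1; this was noticed after the values were seen and was not tested.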

How the data were processed

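Peak lists of the 2 CG10366-eGFP embryo libraries were used as the authors deposited them, in dm6. Aligner and peak caller: not given in the sources used here. Each deposited peak has a summit, a signal, whose scaling is not stated, and a score, which was not used as a result. The −log10 IDR stands in the deposited ranked lists. Passing peaks are those of the deposited thresholded list (IDR of 0.01 or less), and failing candidates are ranked peaks above that limit. Replicate values are the signal of the overlapping peak in each replicate's own list.

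Starts, exons and introns came from Ensembl release 115 without transposable elements, and sequence from RefSeq's copy of dm6. The gene of a site is the protein-coding gene around it with the nearest start. GC content was weighted in bins of 5 percentage points. The 8-mers had to be in at least 50 passing windows. Of 675 list symbols, 622 distinct genes were matched. Python 3.11.15, NumPy 2.4.6, SciPy 1.17.1 and Biopython 1.88 were used, and the scripts were tested on simulated data.

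Genes named are those of the 25 strongest sites, up to 3 per list by signal (1 list, counted in the totals, is not reported here), the 5 genes with most sites (ties by name) and CG10366, besides those that carry a printed sequence, stand at a distance limit or illustrate weak sites. The set and the lists were chosen with earlier results of these data known. No test was run, since there is 1 group and sites are not replicates of a condition.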

Additional observations from a re-analysis of the deposited data

How the results depend on the processing

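Of 108 recomputed values, 81 stayed within the counting interval of the value reported, or within 1.5 times a reported count, and 27 did not. In the lists of single replicates, the sites numbered 561 in replicate 1 and 387 in replicate 2. Of candidates at these positions, 12.3% passed in replicate 1 (7.79% of all candidates) and 11.3% in replicate 2 (8.93%). Those lists rank other candidates. Each of their sites overlaps itself in its own list, so only overlap with the other replicate was measured. It was 61.3% for replicate 1's sites and 87.6% for replicate 2's, which cannot be set beside the share reported for the joint list. The median signals were 87.5 and 79.7. Of listed genes, 38.2% held a site in replicate 1 (23.3% of all genes) and 26.5% in replicate 2 (17.9%). In the conservative list 10.6% of candidates passed, beside 7.55% of candidates of all classes. There 32.4% of listed genes held a site, beside 21.3% of all genes. At an IDR of 0.001 or less, 14.4% passed (11.0% of all candidates), 78.6% were in both replicates, and the median signal was 181. Of the sites, 19.8% had another summit at the nearest start (11.3% of failing candidates) and 84.1% were in a first intron (71.0%). At that limit 3 of the 20 8-mers were above the failing share. Distances up to 1500, up to 3000 and over 1000 bp gave passing shares of 21.5%, 17.6% and 16.5%, beside 15.2% of all candidates. Over 1000 bp, 303 sites were left, 69.3% lay downstream (65.2% of failing candidates), 32.5% of listed genes held a site (24.2% of all genes), and 2 motifs were above, where up to 1500 bp 1 was. With a promoter summit within 250 bp, 14.5% of sites had one at the nearest start (8.86% of failing candidates). Over all autosomal protein-coding genes, with or without a candidate, 15.1% of listed genes held a site (3.82% of all). GC content over 100 bp to either side was 35.9% (42.9% in failing candidates). Without weighting by GC content 7 motifs were above, with the Mef2 site but without the CTCF core, GAGAG and CAGCTG. In every setting in which these were recomputed, the sites had lower GC content, more first introns and more promoter summits than failing candidates, and listed genes held sites more often than all genes; the side of the nearest start took either sign. An alternative added after seeing the data, signals of at least 20, moved none of the values. No paired analysis was possible because the 2 libraries form 1 group. Depth, which is unknown, limits what a missing peak can show.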

Other observations

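Another 20 ranked candidates at these positions had an IDR of 0.01 or less but were left out of the thresholded list, among 148 such candidates in all. The 2 strongest would have ranked near the top of the set. One lay in ush (2L, 480921 to 481256) with a signal of 2897, 1409 bp from a start, and the other in Lk6, a kinase gene (3R, 11760893 to 11761212), with 2281, 965 bp from a start. Their summit windows had GC contents of 27.7% and 29.7%. The next were at Alh, with a signal of 566, and Kdm2, a histone demethylase gene with 3 of the 20, at 419. Why they were left out was not tested.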
